A study of Rattus norvegicus with 24 samples.

Results

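Metallothioneins are small, cysteine-rich proteins that bind zinc and copper, buffer free metal ions and scavenge radicals. Their genes, and that of the zinc exporter ZnT1, are classical targets of the zinc-sensing transcription factor MTF1, which binds short metal response elements upstream of them. ZIP importers (the SLC39 family) bring zinc into the cytosol, and ZnT exporters (the SLC30 family) move it out of the cell or into vesicles and organelles. In muscle, metallothionein transcripts are known to rise in wasting.

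Here, 6 genes of this system were followed in aged rat muscle: the metallothioneins *Mt1*, *Mt2A* and *Mt3*, the transcription factor *Mtf1*, the importer *Slc39a14* (ZIP14) and the exporter *Slc30a1* (ZnT1). They were selected by name, and on measured values, because *Mt1* was among the largest rises with disuse. All 6 were found among 13458 gene symbols, each as a single row of the 14243 rows analysed. Their changes with disuse are therefore described, and how many passed a test there is given beside the share of all rows with nothing read from it. Tests of these genes are read only in the recovery and sham comparisons and among right limbs. The comparison of both disuse periods uses limbs that the choice also used, and its values are descriptions.

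RNA-seq was carried out on the tibialis anterior (TA) of 12 male Fischer 344 rats aged 23 ± 1 months, with both limbs of every animal. Tetrodotoxin (TTX), a sodium channel blocker, was delivered by a pump to the left common peroneal nerve, which silences the TA of that limb. The atrophy group (3 left limbs) had 6 to 7 days of TTX, the recovery group (3 left limbs) a further 9 days without it, and the repeated atrophy group (3 left limbs) then a second block of 5 to 6 days. Control is the 9 untreated right limbs of these same 9 animals, so it is not independent of the treated limbs and all comparisons with control share it. Sham surgery without TTX was given to 3 animals, 1 at each of the atrophy, recovery and repeated atrophy times, with both limbs measured. Values are CPM, a count scaled so that all genes of a limb sum to 1000000.

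Depth inferred from the values was 18860000 to 30890000 reads per limb, so that 1 read is worth 0.0324 to 0.053 CPM. The labelled tissue carried all 7 myofibre markers looked for, which summed to 154400 to 208100 CPM in control, 75420 to 164900 CPM after atrophy and 105600 to 134700 CPM after repeated atrophy. The means of the 7 markers did not all move together. Those of *Acta1*, *Ckm*, *Myh4*, *Myh1* and *Pvalb* were below control in both disuse groups. *Mb* had 7679 CPM in control, 11110 after atrophy and 15740 after repeated atrophy, and *Tnnt3* had 3448, 3243 and 4212 CPM. In bulk tissue, fewer cells of a type, less RNA per cell and changes of single genes cannot be told apart. The sham animal of the repeated atrophy time (sham animal 3) and the right limb of atrophy animal 3 stood apart from the rest of their groups in several of the genes below, and their values, or the result without them, are given there.

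*Mt1*, *Mt2A* and *Mt3* lie in 1 cluster on chromosome 19 of the rn7 build, all on the minus strand, as the deposited table places them (positions below are the start and stop of the table, of which 1 may be counted from 0). *Mt1* spans 10826032 to 10827049 (389 exonic bases), *Mt2A* 10832009 to 10832784 (383 exonic bases) and *Mt3* 10848754 to 10850159 (376 exonic bases). *Mt2A* starts 4960 bases beyond the stop of *Mt1*, and *Mt3* 15970 bases beyond that of *Mt2A*. *Mtf1* lies on chromosome 5 (137062376 to 137107137, plus strand, 5300 exonic bases), *Slc39a14* on chromosome 15 (45376917 to 45423525, minus strand, 4721 exonic bases) and *Slc30a1* on chromosome 13 (103491037 to 103494911, plus strand, 2610 exonic bases).

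The 250 bases upstream of the annotated starts are shown for the 3 metallothioneins, and for the vesicular zinc transporter *Slc30a2* (ZnT2), whose levels followed theirs. They come from RefSeq on the GRCr8 build, which is not the build of the deposited table, and are written 5′ to 3′ on the strand of the gene. Capitals mark cores of the metal response element, searched as TGCACNC and TGCGCNC on both strands, with overlapping matches counted separately. *Slc30a2* has 2 annotated starts, 730 bases apart in RefSeq, as are the starts of its 2 rows in the deposited table (730 bases). The window of the upstream start is shown, which holds cores. The *Slc30a2* levels below are those of the row with the higher mean, which by order and spacing begins at the downstream start, whose window holds none, and the row that begins at the upstream start had a mean of 23.3 CPM over the 24 limbs against 45.1 CPM.
Mt1 (chr19:10832976-10833225, minus strand): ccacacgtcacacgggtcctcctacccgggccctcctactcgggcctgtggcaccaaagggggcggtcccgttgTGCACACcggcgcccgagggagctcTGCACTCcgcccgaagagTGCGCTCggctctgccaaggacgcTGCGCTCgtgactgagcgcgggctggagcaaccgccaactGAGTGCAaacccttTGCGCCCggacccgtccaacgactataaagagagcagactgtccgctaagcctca
Mt2A (chr19:10838709-10838958, minus strand): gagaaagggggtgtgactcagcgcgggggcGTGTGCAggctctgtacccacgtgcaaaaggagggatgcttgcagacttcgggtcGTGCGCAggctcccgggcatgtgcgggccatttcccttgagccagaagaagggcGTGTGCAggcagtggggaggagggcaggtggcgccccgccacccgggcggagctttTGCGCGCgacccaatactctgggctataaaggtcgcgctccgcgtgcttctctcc
Mt3 (chr19:10856081-10856330, minus strand): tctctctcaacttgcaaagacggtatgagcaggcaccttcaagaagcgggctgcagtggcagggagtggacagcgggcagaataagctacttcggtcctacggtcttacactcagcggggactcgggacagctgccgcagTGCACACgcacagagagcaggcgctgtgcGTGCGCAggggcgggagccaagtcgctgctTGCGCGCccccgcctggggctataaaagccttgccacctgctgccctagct
Slc30a2 (chr5:151843201-151843450, plus strand): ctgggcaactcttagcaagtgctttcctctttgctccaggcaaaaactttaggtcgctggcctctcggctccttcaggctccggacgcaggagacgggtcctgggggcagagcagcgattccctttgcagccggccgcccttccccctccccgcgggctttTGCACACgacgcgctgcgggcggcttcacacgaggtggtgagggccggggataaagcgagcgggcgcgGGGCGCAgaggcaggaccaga

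*Mt1* held 6 cores in this window, *Mt2A* 4 and *Mt3* 3. *Mtf1*, *Slc30a1* and the upstream start of *Slc30a2* held 2 each, and the downstream start of *Slc30a2* held 0. Among the 33469 promoters of the same length in the reference, 20.6% held at least 1 core, 4.90% at least 2, 1.17% at least 3, 0.266% at least 4 and 0.0269% at least 6. Of the 6 genes, 5 had an entry and all 5 held a core. Of 18 other zinc transporters with an entry, *Slc30a2* among them, 7 held a core, and *Slc39a7* held 4 at both of its starts. The nearest core lay 55 bases upstream of the start in both *Mt1* and *Mt2A*, and 51 bases upstream in *Mt3*. These matches describe the letters only. Whether the number of cores goes with the level of a gene was not tested.

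**Figure D1:**
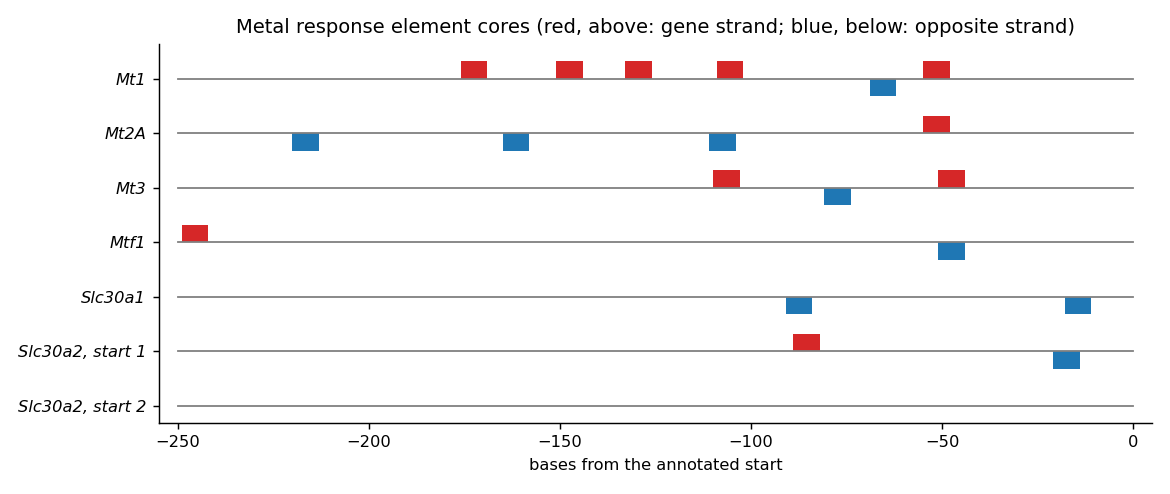
Positions of metal response element cores in the 250 bases upstream of each annotated start, in bases from the start (x axis), for 5 of the 6 genes and both starts of *Slc30a2*. Boxes above a line are cores on the strand of the gene and boxes below it cores on the opposite strand. *Mt1* carries 6, *Mt2A* 4 and *Mt3* 3, and the downstream start of *Slc30a2* carries 0.

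*Mt1* was higher after both periods of disuse than in every control limb. Its mean was higher after the second period than after the first, a difference that did not pass in limma. In control its lowest, median and highest levels were 0.776, 3.22 and 11.7 CPM. The 3 left limbs of the atrophy group had 45.6, 18.3 and 90.8 CPM, those of the recovery group 4.51, 2.09 and 15.3 CPM, and those of the repeated atrophy group 157, 105 and 129 CPM. No limb of either disuse group overlapped with control, whereas the recovery limbs did. All 3 repeated atrophy limbs lay above all 3 atrophy limbs, which describes a gene chosen on these limbs.

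The mean of *Mt1* was 5.19 ± 3.94 CPM in control (SD, n = 9), 51.6 ± 36.7 after atrophy (n = 3) and 131 ± 26.0 after repeated atrophy (n = 3), which are 9.94 and 25.2 times the control mean. On the scale of log2(CPM + 1), which understates changes of low genes, the differences from control were 3.11 (SE 0.59) and 4.69 (SE 0.59). Per kilobase of transcript, *Mt1* went from 13.3 ± 10.1 CPM per kb in control to 336 ± 66.8 after repeated atrophy.

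*Mt2A*, the other metallothionein of wide tissue distribution, moved in the same way from a higher base. Its lowest, median and highest control levels were 1.68, 11.6 and 52.8 CPM. The atrophy limbs had 65.4, 47.7 and 222 CPM, the recovery limbs 7.29, 3.97 and 29.2 CPM, and the repeated atrophy limbs 222.5, 194 and 148 CPM. All 3 repeated atrophy limbs exceeded every control limb, while 1 atrophy limb (47.7 CPM) lay below the highest control limb, the right limb of atrophy animal 3 (52.8 CPM). The repeated atrophy limbs overlapped with the atrophy limbs.

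Its means were 16.2 ± 16.1 CPM in control (n = 9), 112 ± 96.1 after atrophy and 188 ± 37.6 after repeated atrophy (n = 3 each), or 6.88 and 11.6 times control. The differences on log2(CPM + 1) were 2.90 (SE 0.71) and 3.96 (SE 0.71). Per kilobase, *Mt2A* was 42.4 ± 42.1 CPM per kb in control and 492 ± 98.1 after repeated atrophy, above *Mt1* in both. The genes are close paralogues, and how reads that match both were counted is not given in the sources used here.

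**Figure D2:**
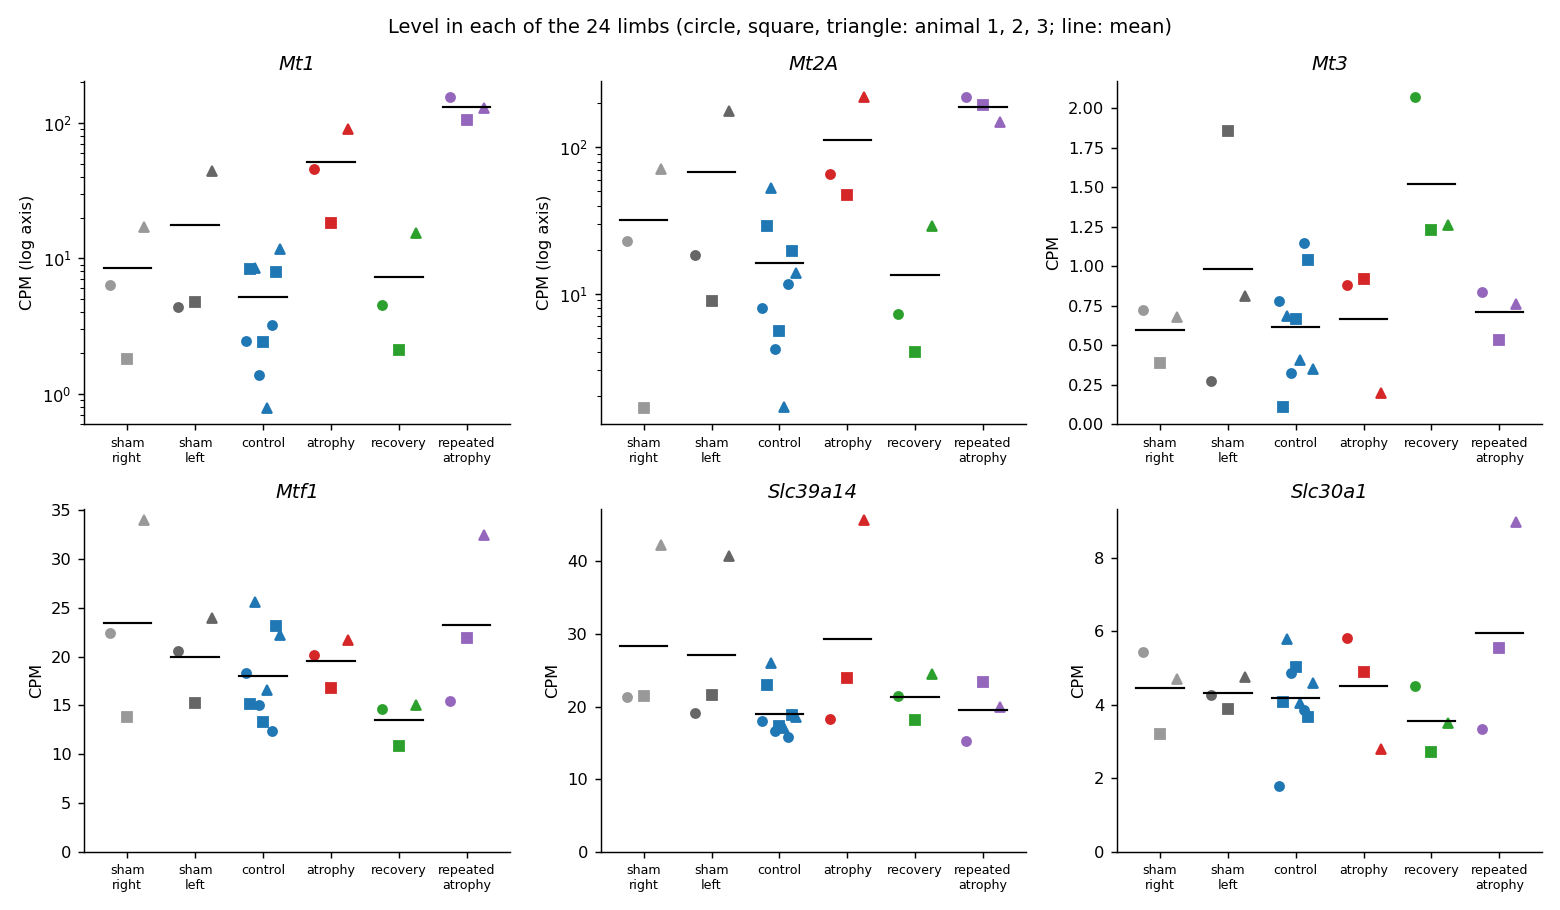
Level in CPM (y axis, logarithmic for *Mt1* and *Mt2A*) of the 6 genes in each of the 24 limbs, by group (x axis), with a symbol per animal number and a line at the group mean. *Mt1* runs from 105 to 157 CPM after repeated atrophy against 0.776 to 11.7 CPM in control, and the 3 zinc-handling regulators and transporters in the lower row overlap between disuse and control.

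Each animal carried its own untreated limb, and the left limb exceeded the right in all 3 animals of both disuse groups for *Mt1* and for *Mt2A*. For *Mt1* the left-to-right ratio was 18.6, 2.19 and 10.8 in the atrophy animals and 48.8, 13.2 and 11.02 in the repeated atrophy animals. For *Mt2A* it was 8.19, 1.65 and 4.21 and then 19.2, 9.93 and 10.7. The *Mt1* ratios of these groups overlapped and those of *Mt2A* did not, both being descriptions. Atrophy animal 2 had the smallest ratio of the 6 disuse animals for both genes. On log2(CPM + 1), the mean left-to-right difference within animals was 2.69 after atrophy and 4.05 after repeated atrophy for *Mt1*, and 1.88 and 3.58 for *Mt2A*, so that *Mt2A* differed less after atrophy against each animal's own right limb than against all 9 control limbs (2.90). In recovery, the left limb was higher in 2 of 3 animals, with *Mt1* ratios of 3.27, 0.871 and 19.7.

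The sham animals showed how far both genes ranged without TTX. *Mt1* was 4.35, 4.78 and 44.2 CPM in their left limbs and 6.401, 1.79 and 17.1 CPM in their right limbs. *Mt2A* was 18.5, 8.90 and 177 CPM on the left and 22.9, 1.65 and 71.4 CPM on the right. In sham animal 3 both limbs were high, and its left limb reached the range of the atrophy group for both genes.

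**Figure D3:**
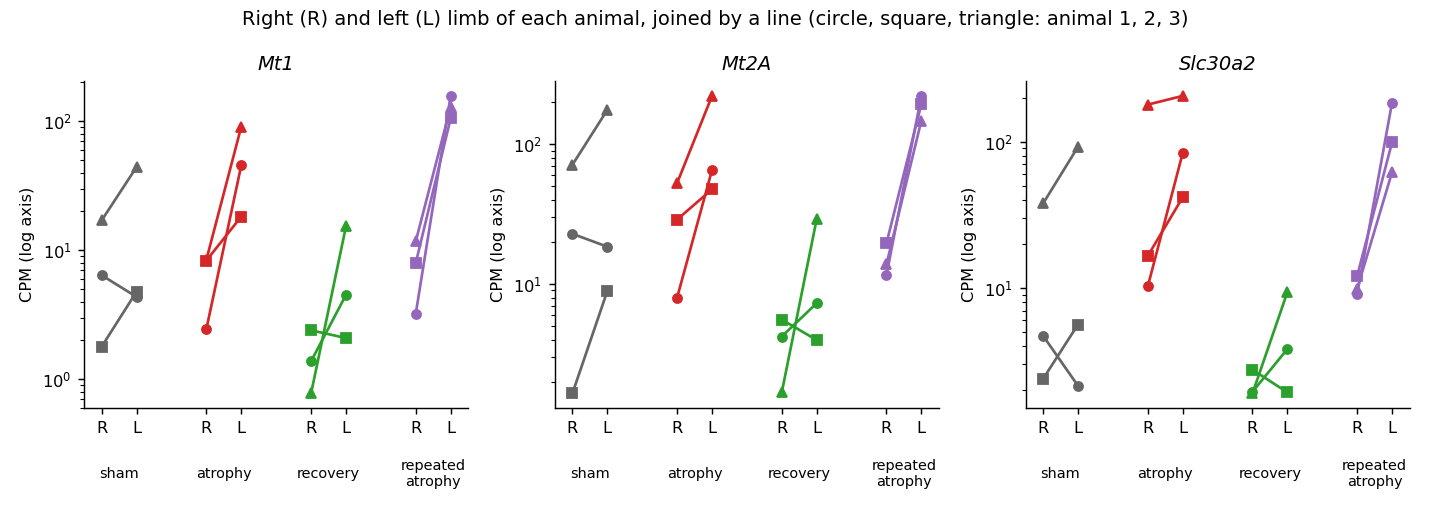
Level in CPM (y axis, logarithmic) of *Mt1*, *Mt2A* and *Slc30a2* in the right (R) and left (L) limb of each of the 12 animals, joined by a line, by animal group (x axis). All lines of the atrophy and repeated atrophy animals rise from right to left, while those of the recovery and sham animals go both ways. The recovery animals' right limbs sit below those of the atrophy and repeated atrophy animals.

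*Mt3*, best known from brain, was detected at low levels: 0.106 to 1.15 CPM in control, 0.195 to 0.922 CPM after atrophy and 0.532 to 0.837 CPM after repeated atrophy. Its differences from control on log2(CPM + 1) were 0.05 (SE 0.19) and 0.11 (SE 0.19). Per kilobase, it stood at 1.63 ± 0.919 CPM per kb in control, below *Mt1* and *Mt2A* there. It therefore did not share the disuse pattern of its 2 neighbours in the cluster, each comparison being a description.

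*Mtf1*, the zinc-sensing transcription factor, ranged from 12.37 to 25.6 CPM in control, with a median of 16.6. It was 20.2, 16.8 and 21.7 CPM in the atrophy limbs, 14.6, 10.8 and 15.1 CPM in the recovery limbs and 15.5, 21.9 and 32.4 CPM in the repeated atrophy limbs. Both disuse groups overlapped with control, with differences of 0.15 (SE 0.23) and 0.33 (SE 0.23).

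*Slc39a14*, which imports zinc, iron and manganese, ranged from 15.9 to 26.0 CPM in control, with a median of 18.01. Its atrophy limbs had 18.3, 23.9 and 45.7 CPM and its repeated atrophy limbs 15.2, 23.4 and 20.0 CPM. The highest of these was the left limb of atrophy animal 3, and sham animal 3 was nearly as high in both limbs, at 40.8 CPM on the left and 42.2 CPM on the right. The differences from control were 0.51 (SE 0.22) after atrophy and 0.03 (SE 0.22) after repeated atrophy. The value after atrophy was 0.20 without atrophy animal 3 and 0.29 within animals.

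*Slc30a1*, the zinc exporter of the plasma membrane, had 5.81, 4.88 and 2.80 CPM after atrophy and 3.35, 5.53 and 8.97 CPM after repeated atrophy, against 1.78 to 5.77 CPM in control. Its differences were 0.08 (SE 0.27) and 0.38 (SE 0.27). Per kilobase, the order of the control levels was *Mt2A*, *Mt1*, *Slc39a14* (4.03 ± 0.700 CPM per kb), *Mtf1* (3.39 ± 0.882), *Mt3* (1.63 ± 0.919) and *Slc30a1* (1.60 ± 0.429). Of the neighbours in this order, only *Mtf1* and *Mt3* differed by more than the larger of their SDs.

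Of the 6 genes, 2 (*Mt1* and *Mt2A*) passed after atrophy (a fold change of at least 1.2 in either direction with an adjusted p of at most 0.05), where 22.6% of all 14031 rows tested passed (20.3% higher and 2.33% lower). The same 2 passed after repeated atrophy, where 34.3% passed (28.1% higher and 6.24% lower). Since these contrasts chose the genes, nothing is read from the counts. After TMM rescaling (a trimmed mean of the log ratios between limbs), which evens out shifts shared by most genes, 48.8% of the calls over all rows after atrophy were higher instead of 89.7%, and 52.1% instead of 81.8% after repeated atrophy. In a fit that compares limbs within animals, 0 of all 14031 rows passed after atrophy and 3806 (27.1%) after repeated atrophy, and without atrophy animal 1 a single row passed after atrophy. A call after atrophy that is lost in either fit therefore says nothing particular about a gene.

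Recovery was compared with control to ask whether these transcripts had returned after 9 days without TTX. The recovery limbs overlapped with control for *Mt1* (log2 fold change 0.37, SE 0.59, adjusted p = 0.74, limma) and *Mt2A* (−0.16, SE 0.71, adjusted p = 0.92). The intervals of 2 SE, −0.81 to 1.56 for *Mt1* and −1.59 to 1.27 for *Mt2A*, leave room for changes of either sign. The value of *Mt1* was −0.48 without recovery animal 3, whose left limb had 15.3 CPM. Within animals the differences were larger, 1.42 for *Mt1* (SE 0.64, unadjusted p = 0.048, adjusted p = 0.28, limma) and 1.25 for *Mt2A* (SE 0.61, adjusted p = 0.30), and for both genes the right limbs of the recovery animals were the 3 lowest of the 9 control limbs.

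Only *Mt3* passed in recovery, 1 of the 6 genes, against 7.73% of all rows (4.4% higher and 3.33% lower). Its recovery limbs had 2.08, 1.23 and 1.26 CPM, which rest on 41, 30 and 26 reads, and all lay above the highest control limb (1.15 CPM). Control limbs held 2 to 30 reads. The log2 fold change was 0.66 (SE 0.19, adjusted p = 0.041). Within animals the difference was 0.77 (SE 0.25), left above right in 3 of 3 animals, with an adjusted p of 0.18 in a fit where 9 of all 14031 rows passed. The call was also lost without recovery animal 1 (adjusted p = 0.29), 2 (0.089) or 3 (0.089) or repeated atrophy animal 3 (0.070). Sham animal 2 had 1.86 CPM in its left limb, within the recovery range. Of the 4 astrocyte and neuron markers, 3 were in the table. *Gfap* lay between 0 and 0.318 CPM, *Snap25* between 0 and 1.365 CPM and *Aqp4*, which muscle fibres also express, reached 132 CPM. Their sum was 12.8 to 134 CPM in control and 20.46 to 71.5 CPM in recovery. The 5 fibroblast markers, all in the table, summed to 1022 to 1918 CPM in recovery and 194 to 528 CPM in control. The 6 macrophage markers summed to 83.9 to 178 CPM in recovery (median 137.5) and 30.6 to 132 CPM in control (median 64.4). The part of these cells in the *Mt3* result was not tested.

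The remaining genes did not pass in recovery: *Mtf1* (−0.36, SE 0.23, adjusted p = 0.34), *Slc39a14* (0.17, SE 0.22, adjusted p = 0.68) and *Slc30a1* (−0.17, SE 0.27, adjusted p = 0.75). Within animals, the left limb was lower than the right in 3 of 3 recovery animals for *Mtf1* and for *Slc30a1*, and higher in 3 of 3 for *Slc39a14*. Within animals, adjusted p was 0.68, 0.66 and 0.43 for these genes.

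Repeated atrophy was set against initial atrophy to ask whether the second period of disuse gave another level than the first. Of the 6 genes 0 passed in limma, and 0.0356% of all rows did, and nothing is read from the count. The difference of *Mt1* was 1.58 (SE 0.73), and within animals 1.36 (SE 0.90). *Mt2A* differed by 1.06 (SE 0.88), and by 1.70 (SE 0.86) within animals. The value of *Slc39a14* was −0.48 (SE 0.26), with −0.18 within animals and −0.11 without atrophy animal 3. The values of *Mt3* (0.07, SE 0.23), *Mtf1* (0.19, SE 0.28) and *Slc30a1* (0.30, SE 0.33) were smaller than their SEs. Without atrophy animal 3, the differences of *Mt1* and *Mt2A* were 2.12 and 1.72.

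Sham surgery, the untreated limb and time were compared for the same 6 genes in a fit over all 24 limbs. In each of these comparisons 0 of the 6 and 0% of 14134 rows passed in limma, with 114 rows at an unadjusted p under 0.05 for left against right sham limbs, 1093 for the right limbs of TTX animals against the right sham limbs, and 441 for the right limbs of repeated atrophy against those of atrophy animals. Both limbs of a sham animal deviated together (r of 0.77, 0.62 and 0.84 across rows), and with the animal as a block 233 (fixed) or 248 (random) rows had an unadjusted p under 0.05 between left and right sham limbs, still with 0 passing. The left sham limbs exceeded the right by 0.63 (SE 0.80) for *Mt1* and 0.97 (SE 1.05) for *Mt2A*, with adjusted p = 1 for both, and without sham animal 3 by 0.29 and 0.81. The right limbs of TTX animals differed from right sham limbs by −0.51 for *Mt1* and −0.47 for *Mt2A*, with SEs of 0.65 and 0.85 (adjusted p = 0.77 and 0.85), and without sham animal 3 by 0.15 and 0.59 (adjusted p = 1 for both).

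Among TTX animals, right limbs were lowest in the recovery group. Their *Mt1* levels were 1.38, 2.40 and 0.776 CPM, against 2.45, 8.32 and 8.45 CPM in atrophy animals and 3.22, 7.97 and 11.7 CPM in repeated atrophy animals. For *Mt2A* they were 4.21, 5.57 and 1.68 CPM, against 7.98, 29.0 and 52.8 CPM and then 11.6, 19.6 and 13.8 CPM. All 3 lay below all 6 others for both genes, and for 2 of the 6 genes in total, where 8.07% of all rows did so and 2.82% did the reverse. This contrast was looked at after the values were seen and has no test. Of the sham animals, the one taken at the recovery time also had the lowest right limb, with 1.79 CPM of *Mt1* and 1.65 CPM of *Mt2A*. Time and animal group cannot be told apart in the right limbs of the treated animals.

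Across the 12 right limbs, 1 from each animal, *Mt1* and *Mt2A* varied together on log2(CPM + 1), with Pearson's r = 0.906 (permutation p = 0.0001, adjusted over 3 pairs 0.0003) and Spearman's rho = 0.902 (p = 0.00026, adjusted 0.00056). Without the 2 limbs farthest from the median of *Mt1*, r was 0.834. On deviations from the mean of each animal group, a setting chosen after the data were seen, r was 0.894 (exact permutation p = 0.00386, two-sided, over the 1296 orders within groups, unadjusted). *Slc30a2* came from the list of zinc transporters and was set beside these genes after its values were seen, so its correlations are given as a description. Its r was 0.847 with *Mt2A* and 0.722 with *Mt1*, 0.829 and 0.63 without the 2 farthest limbs, and 0.794 and 0.695 on deviations from the group means, and its rho was 0.881 and 0.874.

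**Figure D4:**
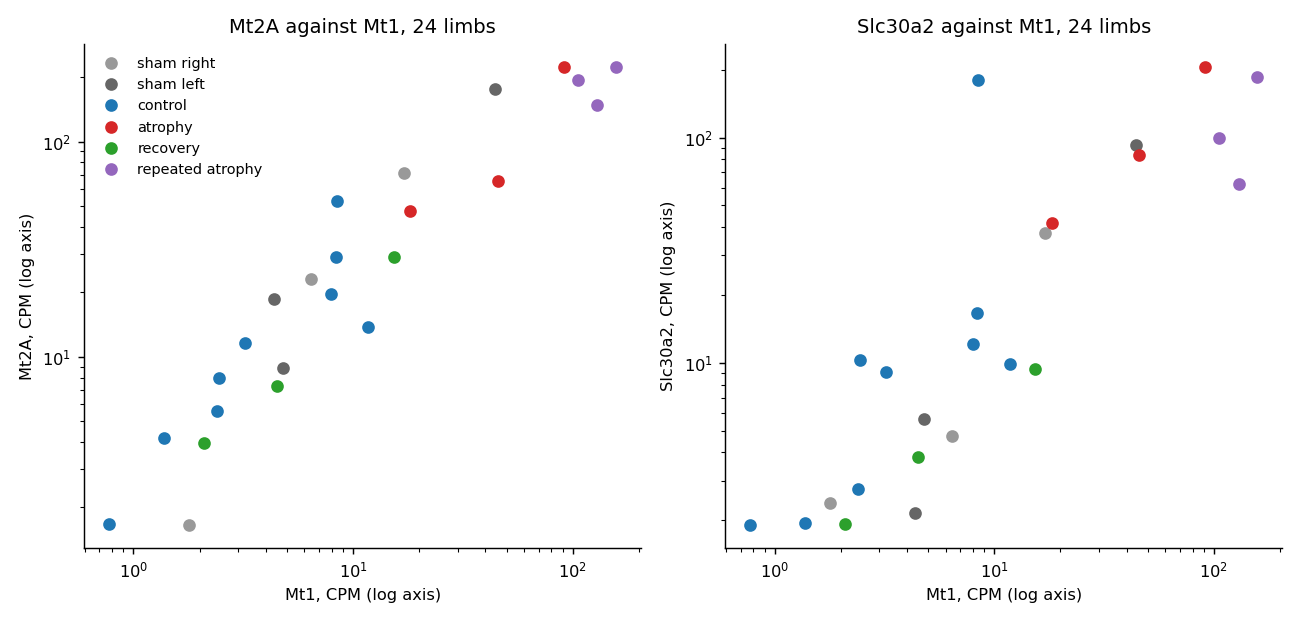
*Mt2A* (left panel) and *Slc30a2* (right panel) against *Mt1* in each of the 24 limbs, in CPM on logarithmic axes, coloured by group. Repeated atrophy limbs lie at the upper right and recovery limbs among the controls, and the control limb at 180 CPM of *Slc30a2* is the right limb of atrophy animal 3.

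The rest of the zinc transporter families was then examined, as 9 SLC30 and 13 SLC39 genes, of which 7 and 12 were tested. After atrophy, 5 of 7 SLC30 genes and 2 of 12 SLC39 genes rose and 0 fell, where 20.3% of all rows rose and 2.33% fell. After repeated atrophy, 5 of 7 and 3 of 12 rose and 0 fell, where 28.1% of all rows rose and 6.24% fell. The SLC39 counts were thus no higher than the share of all rows. The median log2 fold change of the SLC30 genes was 0.72 and 0.82, beside 0.22 and 0.20 for all rows, and that of the SLC39 genes 0.23 and 0.15. In recovery 0 of the 19 passed in limma, and 0 passed between repeated and initial atrophy. The left limb was higher in all 3 recovery animals for *Slc30a3*, *Slc30a4*, *Slc30a5*, *Slc30a7*, *Slc30a9*, *Slc39a6* and *Slc39a10*. It was higher in none for *Slc39a3*, *Slc39a4* and *Slc39a9*. The mean difference of *Slc30a4* was 1.09. As for *Slc30a2*, its right limbs in the recovery animals lay below those of the atrophy and repeated atrophy animals. Within animals, the 7 genes that rose after atrophy became 0, as did all rows, and the 8 after repeated atrophy 5. Without atrophy animal 1 the 7 became 0, in a fit where 1 row passed, and without atrophy animal 3 they became 3, while without repeated atrophy animal 2 the 8 became 5.

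*Slc30a2* (chromosome 5, 146560463 to 146571958, plus strand) had the largest change of them. It was 83.7, 41.7 and 206 CPM in the atrophy limbs, 3.82, 1.93 and 9.36 CPM in the recovery limbs and 185, 99.3 and 62.0 CPM in the repeated atrophy limbs. Control limbs had a median of 9.86 CPM and ranged from 1.90 to 180 CPM, so the groups overlapped through a single limb, the right limb of atrophy animal 3, since the next control limb had 16.6 CPM. In sham animal 3 the left limb, at 92.4 CPM, lay in the range of the disuse limbs and the right, at 37.9 CPM, just below it, against 2.14 to 5.63 CPM in the other sham limbs. After atrophy the log2 fold change was 3.10 with an SE of 0.89 (adjusted p = 0.020). For repeated atrophy it was 3.32, also with an SE of 0.89 (adjusted p = 0.0077).

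Without atrophy animal 3, whose limbs both leave the fit, these values were 3.02 (adjusted p = 0.026) and 3.83 (adjusted p = 0.00014). After atrophy the difference was 3.16 without atrophy animal 1 (adjusted p = 0.15) and 1.46 within animals (SE 0.52, adjusted p = 0.19), and after repeated atrophy 2.90 without repeated atrophy animal 1 (adjusted p = 0.054). Its second row, which begins 730 bases upstream and shares its end, gave 2.65 and 3.23, with adjusted p = 0.028 and 0.0056. After atrophy this row no longer passed after TMM rescaling (2.34, adjusted p = 0.069) or within animals (1.26, adjusted p = 0.29). The 2 rows overlap, so how the authors' counting divided reads between them is uncertain.

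The other SLC30 genes that rose sit in vesicles and the secretory pathway. *Slc30a3* (ZnT3), known from synaptic vesicles, went from 2.25 to 5.89 CPM in control to 21.7, 4.46 and 12.9 CPM after atrophy and 9.88, 29.1 and 23.5 CPM after repeated atrophy. Its log2 fold changes were 1.46 and 2.20, each with an SE of 0.36 (adjusted p = 0.011 and 0.00031). *Slc30a4* (ZnT4), of endosomal vesicles, went from 14.7 to 35.0 CPM to 97.2, 36.8 and 76.8 CPM and then 68.2, 95.1 and 71.3 CPM. No disuse limb of *Slc30a4* overlapped with control, but sham animal 3 had 58.7 CPM on the left and 66.07 CPM on the right, above 1 of the atrophy limbs, against 21.2 to 25.0 CPM in the other sham limbs. Its log2 fold changes were 1.48 and 1.73, each with an SE of 0.28 (adjusted p = 0.0062 and 0.00026). After atrophy the differences within animals were 1.46 for *Slc30a3* and 1.01 for *Slc30a4* (adjusted p = 0.15 and 0.16), without atrophy animal 1 they were 1.05 and 1.23 (adjusted p = 0.17 and 0.13), and without atrophy animal 3 that of *Slc30a3* was 1.34 (adjusted p = 0.057).

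*Slc30a5* and *Slc30a6*, whose products pair in the early secretory pathway, rose less. *Slc30a5* was higher by 0.52 after atrophy and 0.82 after repeated atrophy (adjusted p = 0.045 and 0.0022), and *Slc30a6* by 0.72 and 0.52 (adjusted p = 0.013 and 0.035). Within animals *Slc30a5* differed by 0.25 and 0.96 and *Slc30a6* by 0.68 and 0.53, and only *Slc30a5* after repeated atrophy passed (adjusted p = 0.012). The call of *Slc30a5* after atrophy was lost on leaving out any animal other than atrophy animal 2 (adjusted p from 0.053 to 0.29). That of *Slc30a6* after atrophy was lost without atrophy animal 1 (0.18), and its later call without any 1 of the repeated atrophy animals or without recovery animal 1 or 3 (0.054 to 0.14).

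Among the importers, *Slc39a13* (ZIP13), of the secretory pathway, rose after repeated atrophy, from 29.3 to 52.1 CPM in control to 80.5, 86.2 and 141 CPM without overlap (log2 fold change 1.35, SE 0.27, adjusted p = 0.0011). After atrophy it was 116, 33.4 and 47.3 CPM (0.56, SE 0.27, adjusted p = 0.14). The difference between these periods did not pass (0.79, SE 0.33, adjusted p = 0.69). *Slc39a6* (ZIP6), a plasma membrane importer, rose from a mean of 2.05 to 5.21 and 5.39 CPM (1.03, adjusted p = 0.022, and 1.10, adjusted p = 0.0085). *Slc39a1* (ZIP1), also of the plasma membrane, rose by 0.54 (adjusted p = 0.032) and 0.58 (adjusted p = 0.014). Within animals, *Slc39a6* differed by 0.96 and 0.85 (adjusted p = 0.18 and 0.070) and *Slc39a1* by 0.52 and 0.66 (adjusted p = 0.26 and 0.061). Both genes lost the call after atrophy without atrophy animal 1 (0.18 and 0.38) or 3 (0.12 and 0.11), and that after repeated atrophy without repeated atrophy animal 2 (0.068 and 0.097). *Slc39a1* lost it in 4 further cases (0.051 to 0.071). *Slc39a13* also passed after atrophy without atrophy animal 2 (0.93, adjusted p = 0.019).

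**Figure D5:**
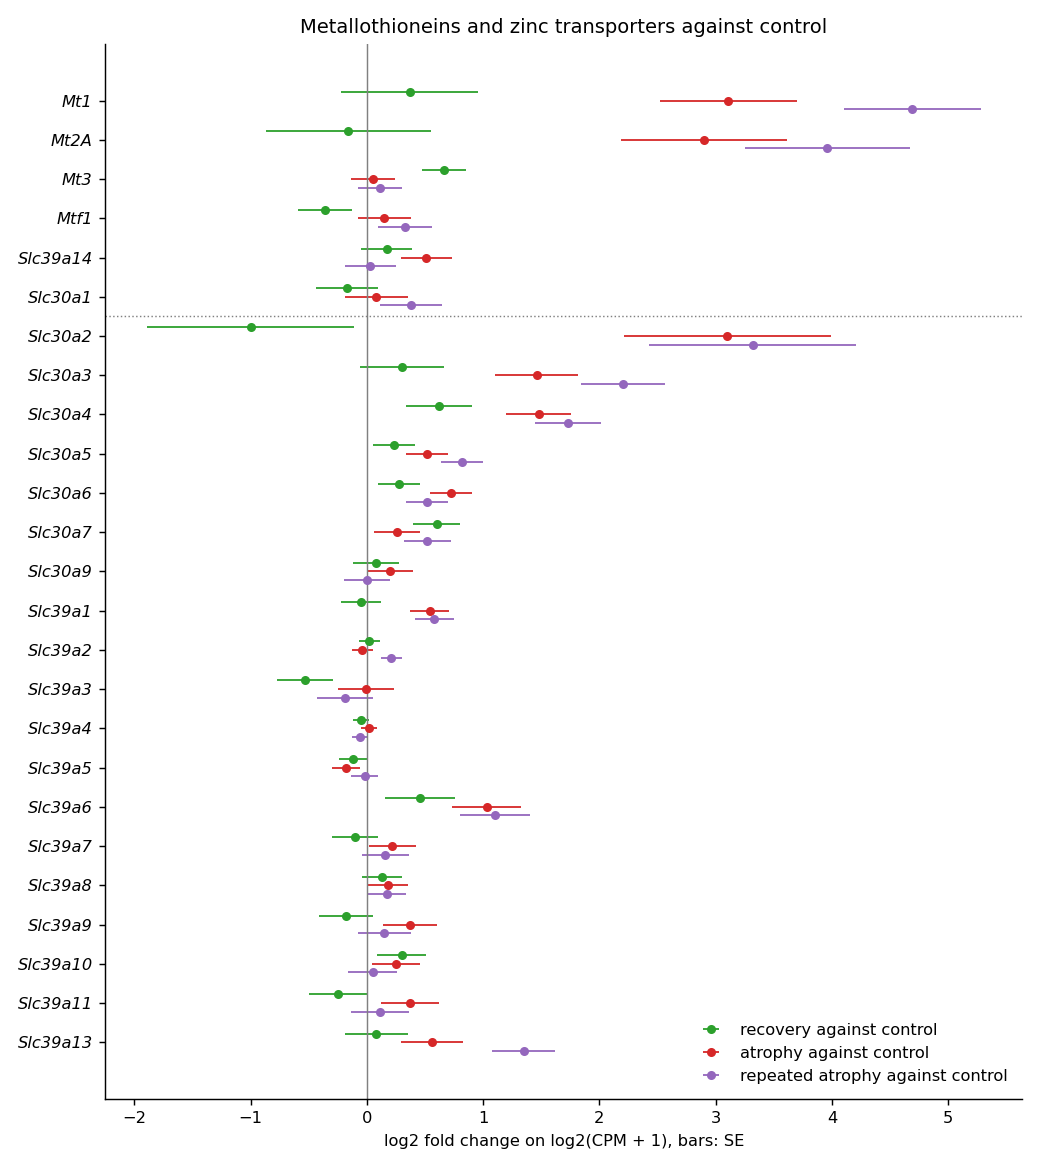
Log2 fold change against control on log2(CPM + 1) (x axis, bars give the SE) of the 6 genes, above the dotted line, and of 19 further zinc transporters after recovery, atrophy and repeated atrophy. *Mt1* (3.11 and 4.69 in disuse), *Mt2A* (2.90 and 3.96) and *Slc30a2* (3.10 and 3.32) lie farthest to the right, and the group comparisons share the same control limbs.

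These values are shares of all reads, and the scale moved with disuse. After TMM rescaling, the median log2 fold change of all rows went from 0.22 to 0.00 after atrophy and from 0.20 to −0.01 after repeated atrophy. Relative to that shift, *Mt1* was 2.79 and 4.35 above control and *Mt2A* 2.56 and 3.61. *Slc39a14* became 0.16 after atrophy and −0.33 after repeated atrophy, *Mtf1* −0.20 and −0.03, *Mt3* −0.08 and −0.04, and *Slc30a1* −0.21 and 0.06, so the sign of each depended on the scaling in at least 1 period. *Slc30a5* and *Slc39a6* after atrophy (adjusted p = 0.52 and 0.083), and *Slc30a6* (0.14 and 0.44) and *Slc39a1* (0.40 and 0.27) after both periods, no longer passed.

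Genes whose levels ran most like those of *Mt1* over the 24 limbs, among 6762 other rows with a mean of at least 10 CPM, were *Lmnb2* (r = 0.972), *Ninj1* (0.969), *Gadd45a* (0.968), *Myog* (0.965) and *Rpl3* (0.963). For *Mt2A* they were *Ctsl* (0.973), *Tgif1* (0.965), *Rpl3* (0.963), *Litaf* (0.962) and *Rbm28* (0.961). All genes share the disuse contrast and the scaling of each limb, so these values are descriptions only. *Myog*, a myogenic transcription factor induced by denervation, had a mean of 57.4 CPM in control, 465 after atrophy, 59.8 in recovery and 528 after repeated atrophy. Of the 9 genes, 8 had an upstream window in the reference and 2 of these (*Lmnb2* and *Litaf*) held a metal response element core. Of all promoters in the reference, 20.6% held at least 1, and nothing is read from the count.

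Of the 4 satellite cell markers, all in the table, only *Myf5* had means far above control in both disuse groups, as *Mt1* and *Mt2A* did. Together they summed to 6.60 to 17.95 CPM in control, 11.1 to 94.1 CPM after atrophy, 10.5 to 23.9 CPM in recovery and 37.3 to 66.3 CPM after repeated atrophy. In the sham limbs they reached 70.7 CPM on the left and 54.4 CPM on the right, with medians of 9.87 and 7.25 CPM. *Myf5* had means of 4.64 CPM in control, 46.3 after atrophy and 43.5 after repeated atrophy, whereas *Pax7*, at 0 in some limbs, had means of 0.506, 0.232 and 0.740 CPM and *Calcr*, also at 0 in some limbs, of 0.376, 0.550 and 0.362 CPM. *Chrdl2*, the fourth, had means of 4.28, 5.43 and 4.28 CPM. Macrophage markers (6 of 6) summed to 30.6 to 132 CPM in control, 59.9 to 124 CPM after atrophy and 39.2 to 90.1 CPM after repeated atrophy, and were highest in recovery at 83.9 to 178 CPM. The part of these cells in the metallothionein levels was not tested.

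Other pathways known to act on metallothionein genes were read from fixed lists, by counts to be set beside the 20.3% of all rows that rose and the 2.33% that fell after atrophy, and the 28.1% and 6.24% after repeated atrophy. In both periods the risers were a larger part of the copper, iron and NRF2 lists than of all rows. None of these counts was tested against that share. After TMM rescaling the risers after atrophy and repeated atrophy became 2 and 3 for copper, 0 and 4 for iron, 1 and 2 for NRF2 targets and 1 and 2 for the IL-6 and STAT3 genes. Of 11 copper handling genes, 5 rose after atrophy, and 5 rose and 1 fell after repeated atrophy, among them *Slc31a2* (1.11, adjusted p = 0.0031), *Cox17* (0.99, adjusted p = 0.00085), *Commd1* (0.98, adjusted p = 0.00060) and the importer *Slc31a1* (0.67, adjusted p = 0.017). Of 11 iron genes, 3 rose after atrophy (from 0 to 7 with an animal left out, 7 being without atrophy animal 2), and 7 rose and 1 fell after repeated atrophy. They included the mitochondrial importer *Slc25a37* (1.47, adjusted p = 0.0028), *Hmox1* (1.36, adjusted p = 0.011), *Ftl1* (1.07, adjusted p = 0.016) and the transferrin receptor *Tfrc*, which fell by 1.32 (adjusted p = 0.031) and rose by 2.24 in recovery (adjusted p = 0.0084). Of 12 NRF2 targets, 4 and 6 rose and 0 fell, with *Gsr* (adjusted p = 0.0029), *Nqo1* (1.12, adjusted p = 0.0085) and *Nfe2l2* (1.11, adjusted p = 0.00092) beside *Hmox1*.

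Of 14 glucocorticoid-responsive genes, 2 rose after atrophy, and 1 rose and 3 fell after repeated atrophy. Both counts of risers were below the share of all rows, and the fallers after repeated atrophy were above theirs. The split depended on the scaling, since after TMM rescaling 0 rose and 6 fell after repeated atrophy, and 4 instead of 1 fell in recovery. The riser was *Errfi1* (1.67, adjusted p = 0.033), and *Cebpd* (−1.61, adjusted p = 0.024), *Dusp1* (−1.27, adjusted p = 0.0036) and *Ddit4* (−1.06, adjusted p = 0.049) fell. Of 12 IL-6 and STAT3 genes, 2 rose after atrophy, and 3 rose and 1 fell after repeated atrophy, again no more risers than the share of all rows gives. *Junb* (1.22, adjusted p = 0.033), *Stat3* (0.99, adjusted p = 0.0045) and *Il6st* (0.97, adjusted p = 0.0020) rose and *Socs3*, a feedback inhibitor, fell by 0.78 (adjusted p = 0.0055), a value that was −2.31 with a pseudocount of 0.1 and −0.12, no longer a call, with 1 of 10. After TMM rescaling, *Slc31a1*, *Hmox1*, *Ftl1*, *Nqo1*, *Errfi1* and *Junb* no longer passed after repeated atrophy (adjusted p = 0.21, 0.051, 0.10, 0.055, 0.097 and 0.13). The genes *Slc31a1*, *Hmox1*, *Tfrc*, *Ftl1*, *Errfi1*, *Cebpd*, *Ddit4*, *Junb* and *Nqo1* each lost the call on leaving out at least 1 repeated atrophy animal (adjusted p from 0.055 to 0.25). In recovery, 1 copper and 2 iron genes rose, 1 glucocorticoid-responsive gene fell and 0 genes of the IL-6 and NRF2 lists passed in limma, where 4.4% of all rows rose and 3.33% fell.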

How the data were processed

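Per the labels and the study's methods, the authors removed contaminant reads with Bowtie2 2.2.5, aligned the others to the rn7 genome by STAR and summarised them in Partek. The counting step and annotation are not given in the sources used here. Normalization is given in the methods as median of ratios, but each deposited column sums to 1000000, so the deposited values were read as CPM made by the authors, and a test for normalized values was used. Of 14271 rows, 28 exact duplicates were dropped. Depth was inferred from the step between low values. Only 89.1% to 90.8% of low values were whole within 0.1 of a step, so reads were not treated as recovered, and read numbers cover counting error only. Another 3 value columns were not used.

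Columns were matched to limbs by the labels. Log2(CPM + 1) values of rows above 0 in at least 3 limbs entered limma 3.58.1 under R 4.3.3, using its trended variance without a block. The first fit held the 18 limbs of TTX animals in 4 groups and the second all 24 limbs. A row was called, or passed, when its fold change reached 1.2 and its p, adjusted by Benjamini-Hochberg over all rows, was 0.05 or lower. The labels pair the limbs of each animal. Over the 9 TTX animals the deviations of left and right limbs from their group means correlated with a mean r of 0.12 (4 of 9 over 0.1), and limma estimated 0.108 there and 0.291 over all 24 limbs. Values within animals come from a fit with animals as a fixed block. Permutation tests were two-sided with 100000 resamples, or exact within animal groups. Scripts were tested on simulated data. For a symbol with several rows the row of highest mean was used. Python 3.11.15, pandas 2.3.3, numpy 2.4.6, scipy 1.17.1 and matplotlib 3.10.9 served for the rest.

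The members, the lists and the tests were chosen with earlier results of these data known. Named genes are the 6 members, every listed SLC30 or SLC39 gene called against control or between the disuse periods, up to 4 of each other list with the largest change after repeated atrophy, the 5 genes most correlated with *Mt1* and with *Mt2A*, and, chosen after their values were seen, the marker genes and *Tfrc* in recovery. The alternatives were TMM (30% of ratios and 5% of levels trimmed, unweighted), the median of ratios, pseudocounts of 0.1 and 10, a minimum mean of 10 CPM, no filter, no trend, a fixed or random animal block, 12 right limbs as control and each animal left out. The metallothionein symbols Mt4, Mt1m and Mt-ps were looked for and had no row among those analysed.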

Additional observations from a re-analysis of the deposited data

Results flagged for a closer look

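The right limb of atrophy animal 3 stood apart from the other control limbs in *Slc30a2*. It had 180 CPM, the next highest of the 9 control limbs had 16.6 CPM, and the gap between them was 0.917 of the range of the group, where the 95% critical value of Dixon's test is 0.493 for 9 samples. It was the single flag among the 7 groups compared. For normally distributed data about 1 in 20 groups passes this value. These are CPM of limbs pooled from several animal groups, so that rate need not hold here. In the same limb *Mt2A* was the highest of the 9 control limbs at 52.8 CPM and *Mt1* the second highest at 8.45 CPM, and its second row of *Slc30a2* had 71.4 CPM. The left limb of this animal had the highest *Slc30a2* of all 24 limbs, 206 CPM.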

How the results depend on the processing

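With 3 animals per group, differences as large as 1.58 on the log2 scale (*Mt1*, repeated against initial atrophy) did not pass the adjusted threshold, and *Mt3* rests on 2 to 42 reads per limb. The call of *Mt3* in recovery became 0 of 6 genes with pseudocounts of 0.1 and 10, with a mean of at least 10 CPM (4 genes then tested) and with the animal as a fixed block, and ranged from 0 (without any 1 recovery animal, or without repeated atrophy animal 3) to 1 with each animal left out. After atrophy the 2 calls, in a contrast that chose the genes, became 0 with the fixed block, as did all rows, and ranged from 0 to 2 with each animal left out, 0 being without atrophy animal 1.

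Of the 19 further zinc transporters, the 7 that rose after atrophy became 3 with TMM and with the median of ratios, 4 with a mean of at least 10 CPM (7 then tested) and 0 with the fixed replicate block, and ranged from 0 (without atrophy animal 1) to 8 (without atrophy animal 2) with each animal left out. The 8 after repeated atrophy became 5 with a mean of at least 10 CPM and 5 with the block, and ranged from 5 (without repeated atrophy animal 2) to 9 (without atrophy animal 2 or 3). In recovery the 0 became 1 with TMM and with the median of ratios, and 0 to 1 with an animal left out, 1 being without atrophy animal 3. With the random block these counts were 6, 9 and 0. Over all rows, the 3171 calls after atrophy became 0 with the fixed block, 1358 with TMM and 1367 with the median of ratios, and ranged from 1 (without atrophy animal 1) to 4841 (without atrophy animal 2). The 4812 after repeated atrophy fell at most to 2573, without repeated atrophy animal 2. The 1084 in recovery became 9 with the fixed block, 1692 with TMM and 1699 with the median of ratios, and were 184 without recovery animal 1. The 5 between the disuse periods ranged from 0 to 36, and the 0 against right sham limbs became 129 without sham animal 2.

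For the other lists, with TMM or the median of ratios the genes that rose after atrophy went from 5 to 2 (copper), 3 to 0 (iron), 4 to 1 (NRF2), 2 to 0 (glucocorticoid) and 2 to 1 (IL-6), and after repeated atrophy from 5 to 3, 7 to 4, 6 to 2, 1 to 0 and 3 to 2, while those that fell went from 3 to 6 (glucocorticoid) and 1 to 2 (IL-6). With the fixed block the risers after atrophy became 0 in all 5 lists, as did all rows. With each animal left out, the risers after repeated atrophy ranged from 3 to 5 (copper), 5 to 7 (iron), 4 to 8 (NRF2), 0 to 2 (glucocorticoid) and 2 to 4 (IL-6), and those that fell from 1 to 4 (glucocorticoid), 1 to 2 (IL-6) and 0 to 1 (copper and iron). After atrophy the risers were 0 in all 5 lists without atrophy animal 1.

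Signs turned for differences that never passed. With the block, *Mt2A* in recovery was 1.25, *Slc30a2* in recovery 0.73 and *Mt3* between the disuse periods −0.21. Against right sham limbs, rescaling by TMM or the median of ratios gave 0.08 for *Mt3* and 0.08 for *Slc30a1*, and a pseudocount of 10 gave 0.00 for *Mt3*. For *Mtf1* in right limbs of repeated atrophy against atrophy animals they gave 0.04 and 0.06. With each animal left out, the recovery difference ranged from −0.48 to 0.84 for *Mt1*, −1.17 to 0.29 for *Mt2A*, −0.28 to 0.01 for *Slc30a1*, −0.20 to 0.04 for *Slc39a1* and −0.06 to 0.19 for *Slc39a13*. Between the disuse periods it ranged from −0.16 to 0.19 for *Mt3*, −0.07 to 0.44 for *Mtf1* and −0.00 to 0.60 for *Slc30a1*. Between sham limbs it ranged from −0.17 to 0.57 for *Mt3*, −0.30 to 0.01 for *Mtf1* and −0.14 to 0.12 for *Slc30a1*. Against right sham limbs it ranged from −1.20 to 0.15 for *Mt1*, −1.80 to 0.59 for *Mt2A*, −0.11 to 0.06 for *Mt3* and −0.26 to 0.05 for *Slc30a1*. In right limbs of repeated atrophy against atrophy animals it ranged from −0.26 to 0.67 for *Mt1*, −0.21 to 0.23 for *Mtf1* and −0.22 to 0.42 for *Slc30a1*. After atrophy it ranged from −0.14 to 0.28 for *Mt3* and −0.21 to 0.38 for *Slc30a1* against control, and after repeated atrophy from −0.1 to 0.16 for *Slc39a14*. With the block, *Mt3* after repeated atrophy was −0.08. The cause of these changes was not tested.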
